A study of Oryza sativa with 4 samples.

Results

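The ends of the short arms of rice chromosomes 11 and 12 carry a recent segmental duplication, so that the same stretch of ancestral DNA is present as 2 copies. The members described here are the peaks of 3 bZIP transcription factors whose centre lies in the first 3 Mb of either chromosome. They number 363 of the 31489 peaks in the 3 bZIP lists: 319 of 28323 in the OsBZIP42 list, 18 of 1107 in that of OsBZIP69 and 26 of 2059 in that of OsBZIP77. The HALO-GST control list had 1 peak there, of 194. Membership depends on position alone and on no signal value.

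The proteins were OsBZIP42 (HBF1 in the labels), OsBZIP69 (FD4) and OsBZIP77 (FD1). Each was made as a HALO fusion in a rabbit reticulocyte expression system and incubated with genomic DNA of Nipponbare leaves, and the retained fragments were sequenced (DAP-seq). HALO-GST, a tag fusion without a transcription factor, was the negative control. The DNA was the same purified leaf DNA in all 4 groups, without chromatin, and each group was 1 library, so no difference between libraries has a replicate check. Intervals below cover the counting of peaks alone, and depth per library is unknown. Signal is the authors' value per peak, used here to rank peaks within a list.

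In a bZIP protein a leucine zipper holds a dimer together and the basic region beside it contacts the DNA, and plant members of the family mostly recognise sites with an ACGT core. Members of the FD type bring the leaf-made flowering signal, florigen, to DNA as part of the florigen activation complex. In the labels OsBZIP69 and OsBZIP77 carry FD names and OsBZIP42 does not. In rice, the copies on chromosomes 11 and 12 are known for having stayed unusually alike in sequence, with gene conversion between them. Reads from stretches that are identical on both copies map to more than one place, and the names of the deposited files are read here as saying that such reads were left out. Sites in identical sequence could not then give a peak on either copy. How much sequence was lost this way was not tested, since no genome of the files' build was used, and no site sequence is printed for the same reason.

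Both copies held nearly the same number of OsBZIP42 peaks. Chromosome 11 had 160 peaks, or 53.3 peaks per Mb (exact Poisson 95% interval 45.4 to 62.3), and chromosome 12 had 159, or 53.0 per Mb (45.1 to 61.9). The ratio of chromosome 12 to chromosome 11 was 0.994 (exact conditional interval 0.793 to 1.25). OsBZIP69, the FD4 protein, had 12 peaks on chromosome 11 and 6 on chromosome 12. Their ratio of 0.50 had an interval from 0.154 to 1.44, so a difference between the copies was not detectable with so few peaks. In the first 4 Mb the ratio was 0.941. OsBZIP77, the FD1 protein, had 14 and 12 peaks, a ratio of 0.857 (0.362 to 2.0), which turned to 1.33 in the first 2 Mb and 1.08 in the first 4 Mb. The control had 1 peak on chromosome 11 (1006309 to 1006509, signal 6), and its centre lay 25083 bp from the nearest OsBZIP42 peak. On chromosome 12 it had 0, with an exact Poisson upper limit of 1.23 per Mb.

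The next 3 Mb of the same chromosomes were more densely occupied. There OsBZIP42 had 252 peaks on chromosome 11 and 234 on chromosome 12, which is 1.58 times (1.29 to 1.93) and 1.47 times (1.20 to 1.81) the number in the first 3 Mb. OsBZIP69 had 18 and 19 peaks there, ratios of 1.5 (0.684 to 3.41) and 3.17 (1.22 to 9.69). OsBZIP77 had 22 and 24, ratios of 1.57 (0.769 to 3.32) and 2.0 (0.962 to 4.39). All 6 ratios were above 1, and the interval excluded 1 for OsBZIP42 on both chromosomes and for OsBZIP69 on chromosome 12.

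**Figure D1:**
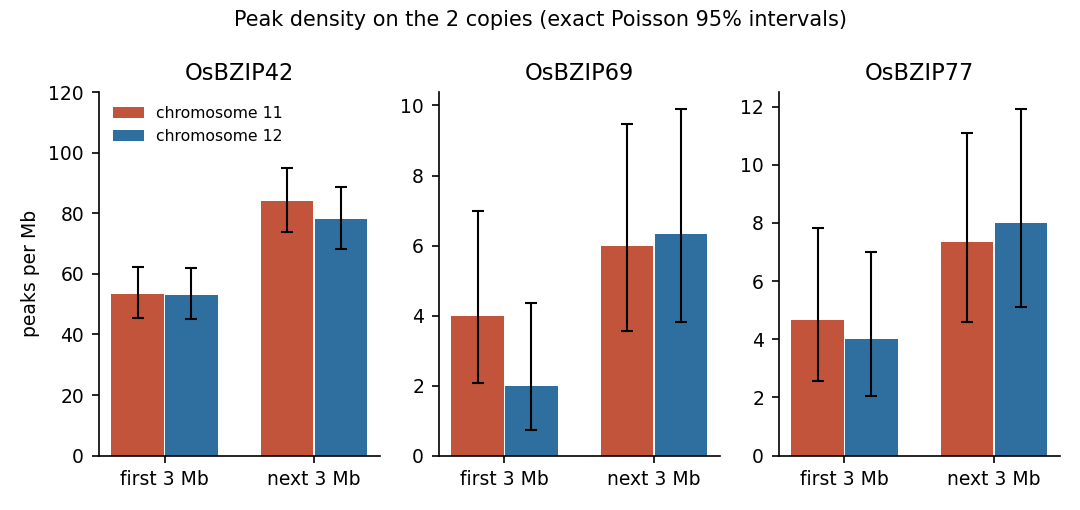
Peaks per Mb (vertical axes, a separate scale for each protein) in the first 3 Mb and the next 3 Mb of chromosomes 11 and 12, with bars for the value in 1 library and error bars for exact Poisson 95% intervals. The bars of both copies stand close together for OsBZIP42, at 53.3 and 53.0 in the first 3 Mb, and both rise in the next 3 Mb to 84.0 and 78.0.

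Peaks were sparse over the outermost 2 Mb and then became dense on both copies at about the same distance from the end. In the first 2 Mb OsBZIP42 had 74 peaks on chromosome 11, or 37.0 per Mb (29.1 to 46.5), and 68 on chromosome 12, or 34 per Mb (26.4 to 43.1). In the third Mb alone it had 86 (68.8 to 106) and 91 (73.3 to 112). The density per Mb was thus 2.32 times as high in the third Mb on chromosome 11 (1.68 to 3.22) and 2.68 times as high on chromosome 12 (1.93 to 3.72). The boundary at 2 Mb was chosen after the counts had been seen. With only the upper 50% of the list by q-value, the ratio on chromosome 12 was 1.67, and with a boundary at 1.5 Mb the ratio on chromosome 11 was 1.58.

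The step was also seen in counts per 0.5 Mb. On chromosome 11 these were 16, 21, 25 and 12 up to 2 Mb, then 41, 45 and 60. On chromosome 12 they were 8, 24, 14 and 22, then 44, 47 and 59. The following intervals of 0.5 Mb, up to 6 Mb, held 44, 46, 33, 34 and 35 peaks on chromosome 11. On chromosome 12 they held 39, 43, 51, 23 and 19. The copies thus lay close from 2 to 4.5 Mb, and further apart beyond 4.5 Mb and in most intervals before 2 Mb. In the 10 other chromosomes the first 2 Mb held between 88 and 216 OsBZIP42 peaks with a median of 165, so that chromosomes 12 and 11 had the 2 lowest counts of the 12 chromosome starts. In the third Mb the others had 36 to 109 with a median of 81.5, and both copies lay inside that range. The third Mb was 0.637 to 1.43 times as dense as the first 2 Mb on the other 10, below both copies. The boundary at 2 Mb was chosen after the counts were seen, so these comparisons with the other 10 depend on that choice. No ratio for the other 10 was computed at another boundary. At 1.5 Mb the ratio was 1.58 on chromosome 11 and 2.46 on chromosome 12.

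**Figure D2:**
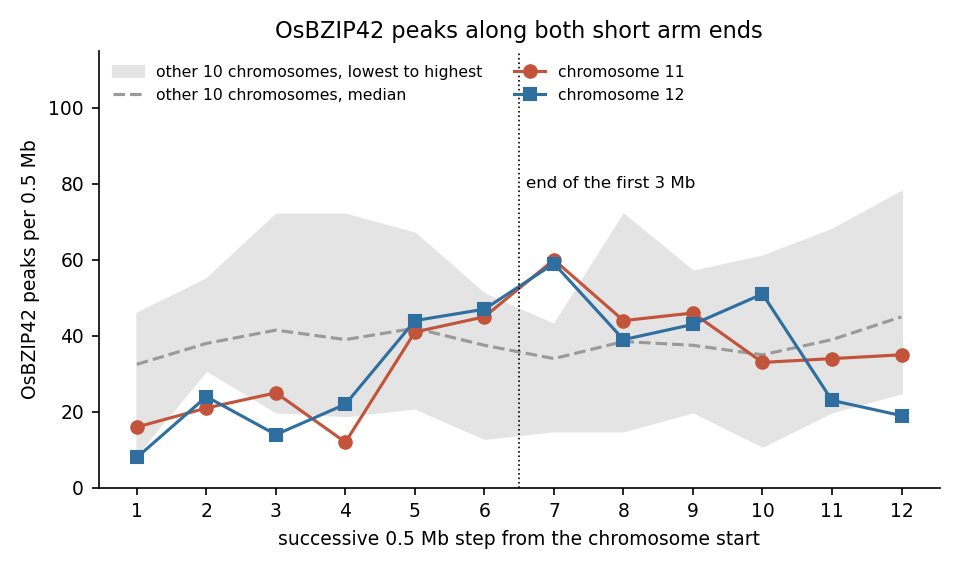
OsBZIP42 peaks per 0.5 Mb (vertical axis) in 12 successive intervals from the chromosome start (horizontal axis) for chromosomes 11 and 12, with the median (dashed) and the lowest to highest count (grey) of the other 10 chromosomes. Up to the fourth interval 5 of the 8 points lie below the grey area and the others inside it, and both lines lie above the dashed line from the sixth to the ninth.

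The sparse part included long stretches without an OsBZIP42 peak. On chromosome 11 no OsBZIP42 centre lay between 1470232 and 1584382, a gap of 114150 bp, and on chromosome 12 none lay between 372880 and 513982, a gap of 141102 bp. Over the whole first 3 Mb, gaps of more than 50 kb made up 15 of 159 spacings on chromosome 11 (9.43%). On chromosome 12 they made up 15 of 158 (9.49%), against 4.23% of all 28311 spacings in the list. Sequence identical on both copies could give no peak if multiply mapped reads were left out, and its part in these gaps was not tested. Of the 30 intervals of 100 kb on each copy, 1 was empty on chromosome 11 and 4 on chromosome 12. In the next 3 Mb the numbers of long gaps were 7 of 251 and 9 of 233. Among all 117 whole 3 Mb windows of the genome, the median was 229 peaks, and 27 windows held fewer than the 160 of chromosome 11 and 25 fewer than the 159 of chromosome 12. The first 3 Mb of chromosomes 4 and 9 also held fewer, with 149 and 130, so a low count over 3 Mb was not peculiar to the duplicated ends.

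OsBZIP69 and OsBZIP77 peaks were spread over both parts. OsBZIP69 had 6 peaks in the first 2 Mb and 6 in the third Mb of chromosome 11, and 4 and 2 on chromosome 12. OsBZIP77 had 6 and 8 on chromosome 11, and 8 and 4 on chromosome 12. These numbers are too small to show whether the shorter lists follow the OsBZIP42 step, since every interval on their ratios included 1.

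Peak strength was similar on both copies. The median OsBZIP42 signal was 24 on chromosome 11 (exact order-statistic 95% interval 20 to 26; quartiles 15.8 and 37.2) and 22 on chromosome 12 (20 to 26.2; quartiles 14.8 and 38). The whole list had a median of 24. Signals ran from 9.1 to 233 on chromosome 11 and from 9.4 to 358 on chromosome 12. With a signal of at least 74, the top decile of the whole list took in 12 peaks on chromosome 11, or 7.5% (exact Clopper-Pearson interval 3.94 to 12.7), and 15 on chromosome 12, or 9.43% (5.38 to 15.1). The medians in the sparse first 2 Mb, 20.5 (18 to 25.2) and 26.2 (19 to 34.5), had intervals that overlapped those of the third Mb, 25.5 (21 to 32) and 21 (18 to 23). For OsBZIP69 the median was 27.5 on chromosome 11 and 17 on chromosome 12, against 25.9 in its list, and for OsBZIP77 it was 21.5 and 27.5, against 22.

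The strongest sites of the copies lay at different distances from the chromosome start. The copies were not aligned, so whether these sites correspond was not tested. On chromosome 11 the strongest OsBZIP42 peak ran from 2560395 to 2560595. Its signal was 233, among the highest 0.674%. It was also the strongest OsBZIP77 peak of that copy, with 34.8, and the second strongest of OsBZIP69, with 32. The next OsBZIP42 peaks, from 2003563 to 2003763 with 178 and from 2004752 to 2004952 with 170, were neighbours with centres at 2003663 and 2004852. OsBZIP69 had its strongest peak of that copy, 69, at the first of these neighbours and 21 at the second, while OsBZIP77 had 24 and 32. All 3 leading OsBZIP42 sites of chromosome 11 were therefore occupied by all 3 proteins.

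On chromosome 12 the strongest peak of every list was the same site. OsBZIP42 had it from 2397707 to 2397907. The OsBZIP42 signal was 358, which placed it in the top 0.124%. OsBZIP69 had 62 there, in the top 11.8%, and OsBZIP77 had 48, in the top 3.16%. The next OsBZIP42 peaks in strength, from 583198 to 583398 with 297 and from 1904116 to 1904316 with 224, had OsBZIP77 peaks of 24 and 33 but no OsBZIP69 peak within 100 bp. The strongest peaks in neither shorter list, chosen after their values were seen, had signals of 132 on chromosome 11 (2918212 to 2918412) and 210 on chromosome 12 (2775577 to 2775777).

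A duplicated block that kept its sites, without insertions or deletions between them, would show as sites spaced alike and in the same order on both copies. The distances between neighbouring OsBZIP42 centres were compared, each of the 159 on chromosome 11 with each of the 158 on chromosome 12. No order of like spacing was found among the called peaks. Sites in sequence identical on both copies could give no peak if multiply mapped reads were left out. Like spacing in such sequence could therefore not be seen. A run was defined as at least 2 consecutive spacings, that is 3 peaks on each copy, that were alike within 10 bp. There were 0 runs among 24806 possible starts, all of which were compared. Of the 66 pairs of chromosome starts, 5, or 7.58%, had a run, each pair 1 run of 2 spacings. With the order of 1 chromosome reversed, 11 against 12 again had 0 runs, and in the same order so did their next 3 Mb.

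Peaks present on only 1 copy would break such runs. Chains were therefore also sought, in which at least 3 pairs of peaks kept the same spacing within 10 bp, with up to 2 skipped peaks on each copy and at most 50 kb between neighbouring pairs. Chromosomes 11 and 12 had 0 such matched pairs, and the longest chain held 2 pairs. A chain was found in 33 of the 66 pairs of chromosome starts, or 50%, with up to 15 matched pairs and at most 3 pairs in a chain. Denser chromosome starts offer more comparisons, and in the 5 other pairs among the 4 sparsest starts (chromosomes 4, 9, 11 and 12) there were also 0 runs and 0 pairs of chromosomes with a chain. The absence of chains on chromosomes 11 and 12 thus matched that of other sparse starts. How much sequence each pair lost to multiply mapped reads was not tested, so these counts do not show that the copies lack like order. With no matched pair, signal and sharing could not be compared site by site between the copies.

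Some looser settings gave chains. With spacings alike within 20 bp there were again 0 matched pairs, and with up to 4 skipped peaks there were 3. With spacings alike within 1% or 10 bp, 34 pairs were matched. The other 65 pairs of chromosomes had a median of 50 and a range of 15 to 116, but most of them are denser and offer more comparisons. The 5 other pairs among the sparsest starts had 15 to 27, fewer than the 34 of chromosomes 11 and 12. They also offered fewer comparisons of neighbouring spacings, 19092 to 23532 against 25122. Whether this accounts for their fewer matched pairs was not tested. A tolerance of 50 bp gave 12 matched pairs, against a median of 27 in the other 65 and 0 to 12 in the 5 sparse ones.

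These chains were short, of 4 pairs at most. At 1% or 10 bp, the 11 chains were displaced between the copies by 81.6 to 1792 kb with a median of 1344 kb, in 5 by less than 350 kb and in 2 by less than 100 kb. At 50 bp, 1 of the 4 chains was displaced by less than 100 kb. It set the strongest site of chromosome 11, centred at 2560495 with a signal of 233, against a peak at 2469776 on chromosome 12 with a signal of 21.7. Its other pairs were 2560606 (signal 68.5) with 2469842 (103), and 2574118 (49) with 2483371 (22). A chain at 1% or 10 bp overlapped this stretch.

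Single like spacings were not more frequent than in most other pairs. Of 25122 comparisons between the copies, 26 were alike within 10 bp, or 0.103%. In the other 65 pairs this share ran from 0.0683% to 0.202% with a median of 0.134%, and it was higher in 58 of them. Most of the 65 are denser. In the 5 other pairs among the sparsest starts it ran from 0.0683% to 0.105%, and the 0.103% lay near the upper end of that range. Of the 26 like spacings, 13 were shorter than 1 kb and 2 were equal to the base, and 3 lay within 200 kb of the same distance from both chromosome starts.

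**Figure D3:**
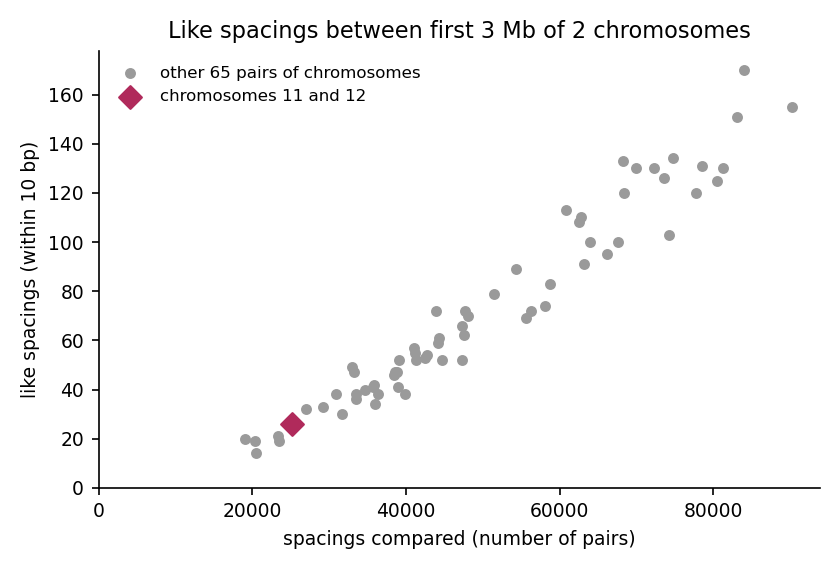
Like spacings (vertical axis, number of OsBZIP42 spacings alike within 10 bp) against the number of spacings compared (horizontal axis) for each of the 66 pairs of chromosomes, first 3 Mb of each. Chromosomes 11 and 12 (diamond), with 26 of 25122, lie among the other sparse pairs and on the same trend as the rest.

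The like spacing nearest to the same position on both copies was 3615 bp on chromosome 11 (centres 2570503 and 2574118, signals 49 and 49) and 3623 bp on chromosome 12 (2464978 and 2468601, signals 10 and 12). It was displaced by 106 kb. The next was 7855 bp on chromosome 11 (2436069 and 2443924, signals 13 and 58) and 7863 bp on chromosome 12 (2600435 and 2608298, signals 20 and 18), displaced by 164 kb in the opposite direction. The longest, 22848 and 22841 bp, was displaced by 385 kb. These named spacings, chosen after their values were seen, do not line up along a common displacement. In both of the first 2 sets the highest of the 4 signals was over 4 times the lowest. The 5 like spacings with the smallest displacements lay at -106, 164, -194, 217 and 238 kb (chromosome 12 minus chromosome 11). The 5 chains at 1% or 10 bp displaced by less than 350 kb lay at -90.8, -81.6, 223, 251 and 343 kb. Some of these displacements thus lay near one another. Whether they did so more often than in other pairs of chromosomes was not tested.

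**Figure D4:**
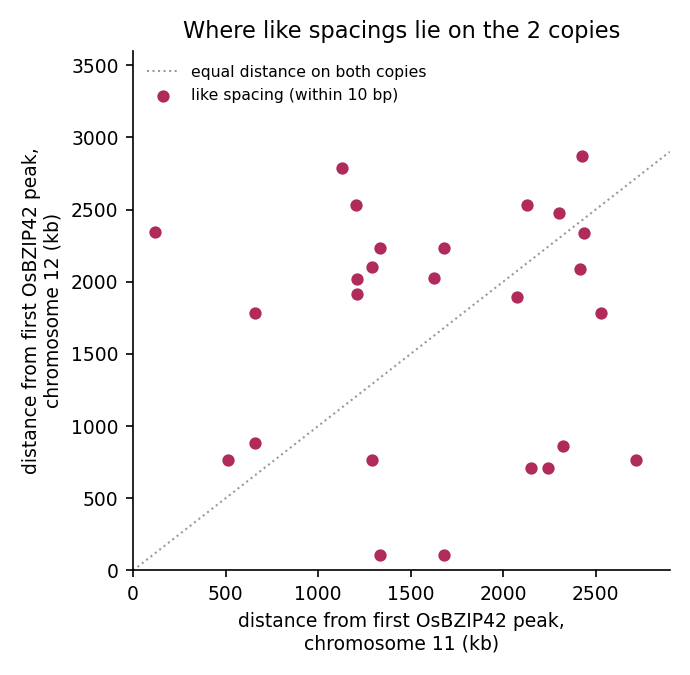
Position of the 26 like spacings as distance in kb from the first OsBZIP42 peak on chromosome 11 (horizontal axis) and on chromosome 12 (vertical axis). The points scatter over the plane, with no row of points along the dotted line of equal distance.

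The last comparison asked how often the OsBZIP42 sites of each copy were shared with the other proteins. On chromosome 11, 11 of 160 OsBZIP42 peaks had an OsBZIP69 centre within 100 bp, or 6.88% (3.48 to 12), and on chromosome 12 it was 7 of 159, or 4.4% (1.79 to 8.86). Over the whole OsBZIP42 list the share was 4.33%. For OsBZIP77 the shares were 16 of 160, or 10% (5.82 to 15.7), and 13 of 159, or 8.18% (4.43 to 13.6), against 7.8% of the whole list. Both intervals of each protein held the whole-list share, so the duplicated ends were shared at about the background rate. Which copy had the higher share turned with the length counted. For OsBZIP69 the shares were 6.76% on chromosome 11 and 7.35% on chromosome 12 in the first 2 Mb, and 6.06% and 7.0% in the first 4 Mb. For OsBZIP77 they were 10.8% and 13.2%, and 10.2% and 11.3%. Both other proteins were found at 9 OsBZIP42 peaks on chromosome 11, or 5.63% (2.60 to 10.4), and at 3 on chromosome 12, or 1.89% (0.391 to 5.41), against 3.31% of the whole list. On either chromosome 142 OsBZIP42 peaks were in neither shorter list.

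Strong OsBZIP42 sites, those in the top decile by signal, had a higher share on both copies than weaker ones. OsBZIP69 had a peak at 6 of 12 on chromosome 11, or 50% (21.1 to 78.9), and at 3 of 15 on chromosome 12, or 20% (4.33 to 48.1), against 26.8% of the top decile of the whole list. For OsBZIP77 these were 7 of 12, or 58.3% (27.7 to 84.8), and 5 of 15, or 33.3% (11.8 to 61.6), against 40.7%. Below the top decile, OsBZIP69 was at 5 of 148 peaks (3.38%, 1.11 to 7.71) and 4 of 144 (2.78%, 0.762 to 6.96), and OsBZIP77 at 9 of 148 (6.08%, 2.82 to 11.2) and 8 of 144 (5.56%, 2.43 to 10.7). The intervals of strong and weaker sites overlapped for OsBZIP69 on chromosome 12 and were apart in the other 3 comparisons, while those of the 2 copies overlapped throughout.

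Nearly all peaks of the shorter lists coincided with an OsBZIP42 peak. OsBZIP69 shared 11 of 12 on chromosome 11 and 5 of 6 on chromosome 12, against 97.6% of its list, and OsBZIP77 shared 14 of 14 and 12 of 12, against 96.4%. The OsBZIP69 peaks without OsBZIP42 were weak, with a signal of 12 on chromosome 11 (726357 to 726557) and 10 on chromosome 12 (264753 to 264953), in the lowest 10% of that list by signal. The nearest OsBZIP42 centres were 9843 and 921 bp away.

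The overlap between the 2 shorter lists rested on few peaks. OsBZIP77 was present at 9 of 12 OsBZIP69 peaks on chromosome 11, or 75% (42.8 to 94.5), and at 2 of 6 on chromosome 12, or 33.3% (4.33 to 77.7). Over the OsBZIP69 list it was 73.6%. Seen from OsBZIP77, 9 of 14 peaks on chromosome 11 were shared, or 64.3% (35.1 to 87.2), and 2 of 12 on chromosome 12, or 16.7% (2.09 to 48.4), against 39.5% of its list. Both shares were higher on chromosome 11, but their intervals overlapped between the copies, and a difference was not shown at this number of peaks.

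Sites of all 3 proteins numbered 9 on chromosome 11 and 2 on chromosome 12, and at all 11 the OsBZIP69 and OsBZIP77 centres fell on the same base. On chromosome 11, 4 lay in the sparse first 2 Mb. The site centred at 215541 had an OsBZIP42 signal of 31, an OsBZIP69 signal of 28 and an OsBZIP77 signal of 22. The sites at 255167 and 372091 had OsBZIP42 signals of 103 and 88.8, OsBZIP69 signals of 28 and 26, and OsBZIP77 signals of 20 and 24.2. The shorter lists thus gave similar signals at these 3 sites, although the OsBZIP42 signal varied from 31 to 103. The site at 1292581 had an OsBZIP42 signal of 78.7, beside 30 for OsBZIP69 and 33 for OsBZIP77.

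The other 5 sites of all 3 proteins on chromosome 11 lay beyond 2 Mb. They were the 3 strongest described above and the sites at 2443923 and 2665656. The former had an OsBZIP42 signal of 58, beside 16 for OsBZIP69 and 20 for OsBZIP77. The latter had 61, beside 29 and 26. On chromosome 12 the sites of all 3 proteins were the strongest site, at 2397806, and the site at 1911521. At the latter, a weak OsBZIP42 peak (centre 1911432, signal 16.6) lay beside a stronger one (1911519, signal 121), and OsBZIP69 had 53 and OsBZIP77 had 32. A single like spacing joined sites of all 3 proteins on both copies: 538 bp from 2665119 to 2665657 on chromosome 11 and 539 bp from 1911519 to 1912058 on chromosome 12, displaced by 754 kb. It was chosen after its values were seen, and the site stands at the right end of the spacing on chromosome 11 and at the left end on chromosome 12.

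OsBZIP42 sites shared with OsBZIP77 alone numbered 5 on chromosome 11 and 10 on chromosome 12. On chromosome 12 their OsBZIP42 signals ran from 10.5 to 297 and their OsBZIP77 signals from 11 to 34. The one closest to the chromosome end, from 125782 to 125982, had 120 for OsBZIP42 and 34 for OsBZIP77, and it was also the outermost OsBZIP42 peak of that chromosome. The site at 568212 had the weakest OsBZIP42 signal of these, 10.5, beside an OsBZIP77 signal of 13. On chromosome 11 the OsBZIP77 signals of such sites ran from 12 to 21. Sites shared with OsBZIP69 alone numbered 2 on chromosome 11, with OsBZIP69 signals of 16 and 27, and 3 on chromosome 12, with 13, 13 and 21.

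**Figure D5:**
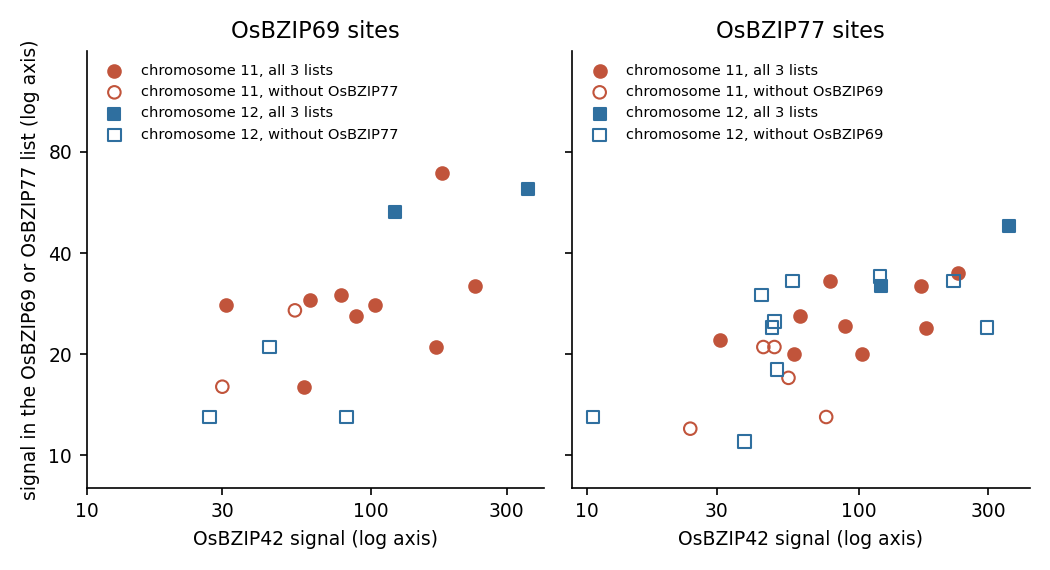
Signal of each OsBZIP69 (left) or OsBZIP77 (right) site on the 2 copies (vertical log axis) against the OsBZIP42 signal at the same site (horizontal log axis), filled where all 3 lists had a peak. On chromosome 11 most OsBZIP77 sites are filled (9 of 14) and on chromosome 12 most are open (10 of 12).

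The limit at 3 Mb cut through no group of peaks. The last OsBZIP42 centre inside it was at 2975978 on chromosome 11, with a signal of 22, and at 2995055 on chromosome 12, with 30.5. The first outside were at 3032473, with 32, and at 3008737, with 39. On chromosome 12 the first OsBZIP69 and OsBZIP77 peaks outside shared a centre at 3039211, with signals of 12 and 14.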

How the data were processed

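The members and lists were chosen with earlier results of these data known. DAP-seq was done on Nipponbare leaf DNA with 3 bZIP fusions and HALO-GST, 1 library each, grouped by sample title. Per the submitters' processing notes, Bowtie2 2.2.8 did the alignment; no source used here names a genome build. Names of the deposited lists record GEM peak calls, against a negative control for the bZIP lists, and a word in them is read as multiply mapped reads left out. Unlike the others, the OsBZIP77 name does not mention the reticulocyte system. The authors' signal column has no stated unit; the deposited score and −log10 p-value columns were not used in a result, and the deposited −log10 q-value ranked peaks in 1 alternative. Every interval is 201 bp wide, and its centre decided membership. Coordinates are 1-based in the authors' build. Peaks were not assigned to genes, as the gene table at hand is of another assembly.

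Counts, spacings, exact intervals (Poisson, conditional binomial, Clopper-Pearson, order-statistic) and shares within 100 bp were computed with Python 3.11.15, NumPy 2.4.6, pandas 2.3.3 and SciPy 1.17.1. With 1 library a group no test was made; like spacings were set beside the other 65 pairs of chromosome starts, and not beside shuffled spacings. Intervals cover counting error only, and neighbouring peaks are not independent. The spacing code was tested on simulated lists in which an unbroken block of peaks was copied with a few bp of change per spacing. Lost peaks and insertions were not simulated, and the result was checked for runs but not for chains. Sites are named by rank: the 3 strongest of each list on each copy, and sites of the shorter lists; the planned naming of matched pairs had none to name.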

Additional observations from a re-analysis of the deposited data

How the results depend on the processing

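Of 76 alternatives for 16 results, 57 were planned and 19 were chosen after seeing the data. In 67 the value stayed within its interval or within 1.5 times the count, and a turn of direction inside the interval counted as staying. The median OsBZIP42 signal of chromosome 12 over 11, judged by the limits of the 2 medians, was 0.917 in the main setting. It was 1.28 in the first 2 Mb, 0.92 in the first 4 Mb and 1.16 with the upper 50% by q-value. Matched pairs rose from 0 to 34 with spacings alike within 1% or 10 bp, and to 12 with 50 bp. They rose to 3 in the first 4 Mb and to 3 with up to 4 skipped peaks. In the other 65 pairs of chromosomes the median was 50 for 1%, 3 for 4 skipped peaks and 27 for 50 bp. Most of these are denser, and the 5 pairs among the sparsest starts had 15 to 27, 0 to 3 and 0 to 12. Runs of like spacing stayed at 0 under all 8 alternatives. Single like spacings numbered 10 within 5 bp and 47 within 20 bp. The third Mb over the first 2 Mb gave 1.58 on chromosome 11 with the boundary at 1.5 Mb and 1.67 on chromosome 12 with the upper 50% by q-value, which left 66 peaks there. Spearman's rho of peaks per interval was 0.34 with intervals of 50 kb. The causes were not tested. Signal and sharing over matched pairs had no value, as no pair was matched. No paired analysis was possible because there were no replicates, and none could be left out. Unknown depth and mappability limit any statement on sites absent from a copy.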

Other observations

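OsBZIP42 centres within 200 bp of each other formed 6 groups on chromosome 11 and 9 on chromosome 12, each of 2 centres. They made up 3.77% and 5.70% of spacings, against 6.69% over the whole list. The strongest had signals of 233 and 68.5 on chromosome 11, with centres at 2560495 and 2560606, and 21.5 and 210 on chromosome 12, with centres at 2775524 and 2775677. Such groups were not told apart from a single enriched region split by the peak caller.

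Numbers of OsBZIP42 peaks in 30 successive intervals of 100 kb varied alike on both copies, with Spearman's rho of 0.53 and Pearson's r of 0.55, given as a description without a test. With intervals of 50 kb rho was 0.34. At 100 kb, in the other 65 pairs of chromosome starts, rho ran from -0.40 to 0.46 with a median of 0.06. Within the first 2 Mb rho was 0.33 over 20 intervals, and within the third Mb it was -0.03 over 10, so much of the likeness lay in the step between these parts. All intervals share 1 library.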
